A study of Mus musculus with 11 samples.

Results

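Mesenchymal stem cells (MSCs) are recognised by proteins on their surface, and the genes of 10 such proteins are described here in cultured MSCs from the bones of mice. The genes were taken by name as Ly6a, Eng, Thy1, Cd44, Nt5e, Mcam, Alcam, Ngfr, Cd200 and Cspg4, and all 10 were found among the 28222 genes of the deposited counts. No rule on expression values was used, but earlier results of these data were known when the genes were chosen.

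Polyadenylated RNA was sequenced in 11 libraries, which the labels place in 3 batches. Batch A held 4 libraries of young mice (A young), batch B held 2 of young and 2 of old mice (B young and B old), and batch C held 3 of old mice (C old). Young mice were aged 3 to 5 months and old mice 18 to 22 months, and all cells had been cultured at 2% oxygen. The methods of the study name C57BL/6N mice and hind limb bones, and a sort for cells with Sca-1 and CD140a but without CD45 and Ter-119. Those methods are written for an oxygen comparison and were assumed to hold here. No genotype or treatment other than age is given by the labels. Sca-1 is the product of Ly6a, so that the level of Ly6a describes cells gated on its own protein. Neither the labels nor the methods say whether the libraries of a group came from separate mice, and p-values therefore measure the spread between these libraries.

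Human MSCs are defined by convention through CD105 (Eng), CD90 (Thy1) and CD73 (Nt5e) together with the absence of blood cell markers, whereas mouse MSCs of bone are commonly enriched through Sca-1 (Ly6a) and CD140a (Pdgfra). The other genes encode adhesion molecules and receptors which mark stromal cells of different niches. Mcam (CD146), Cspg4 (NG2) and Ngfr (CD271) are used for cells near vessels, Alcam (CD166) for skeletal progenitors, and Cd44 and Cd200 for stromal and many other cells. Transcript levels do not give the amount of protein on the surface, part of which can also be cut off by sheddases.

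Nt5e and Alcam were the genes called between old and young MSCs when batch was taken into account, with limits given below. The 30 bases next to their start sites are shown. Both promoters carry copies of the GC box, a motif bound by factors of the Sp family, as do those of most other members analysed. The sequences are from RefSeq on GRCm38.p6, are written in the direction of the gene and end at the base before the RefSeq start. Capitals mark GGGCGG or its reverse complement. GENCODE places both stretches inside an exon of the gene. It starts both genes further upstream, so that the 250 bases used below lie within its bounds of Nt5e and Alcam.
Nt5e at chr9:88327579-88327608 on the plus strand: ctgtccCCGCCCCGCCCtcctctactccgc
Alcam at chr16:52453082-52453111 on the minus strand: gcgctgccgccgaggaagctGGGCGGgaga
In the 250 bases before the RefSeq start, GGGCGG was found on either strand at 4 places for Nt5e, with overlaps, and at 2 for Alcam. Mcam had 5 places, Ngfr 4, Cspg4 2 and Cd200 1, and Eng and Cd44 had none. Of the 32851 promoters of this length analysed, which did not cover every chromosome, 32.7% held the motif. The GC content was 72.0% for Nt5e and 69.2% for Alcam, against a median of 52.4% over these promoters and 42.4% for Cd200. Promoters of Ly6a and Thy1 were not analysed here.

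Libraries held between 11969336 and 20315934 counts. Levels are given as CPM, which are counts brought to a common library total, with TMM factors for composition, and the detection limit was set at 3 counts, or 0.156 to 0.253 CPM depending on the library. The stromal identity of the cells was checked with 10 mesenchymal genes, among them Col1a1, Col1a2, Col3a1, Dcn and Prrx1. All 10 were detected in every group, with summed levels of 103000 to 114000 CPM in A young, 58000 to 89900 in B young, 48600 to 52700 in B old and 45900 to 48300 in C old. Most of each sum came from Col1a1 (means of 56000, 33300, 22800 and 19000 CPM in the same order) and Col1a2 (35000, 24300, 16300 and 15500). Of the others, Pdgfra and Prrx1 had higher means in C old than in A young, and Pdgfrb, Col3a1, Dcn and Vim lower ones. Lum and Twist1 had similar means in both groups. Markers of leukocytes and macrophages were also present, and their sums were lowest in C old with 116 to 134 CPM against 326 to 1100 CPM in the other groups. The most abundant of them, Lyz2, had means of 337 CPM in A young, 274 in B young, 501 in B old and 66.6 in C old. Of the sort genes, Ptprc (CD45) lay between 3.47 and 22.2 CPM, and Pdgfra between 109 and 289 CPM. Erythroid markers summed to at most 3.84 CPM. In these bulk libraries, fewer cells of a type and less RNA per cell cannot be told apart.

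When levels were divided by exon length, the 10 genes spanned a wide range but kept much of their order in all groups. Ly6a stood first with a mean of 404 CPM per kilobase over all libraries, above 99.3% of the genes tested. Thy1 followed with 88.0, Cd44 with 38.2, Eng with 17.9 and Cspg4 with 10.6 CPM per kilobase. These 5 places were the same in each of the 4 groups. Alcam, Mcam, Nt5e and Cd200 lay lower, with means of 3.63, 2.13, 1.66 and 0.838 CPM per kilobase, and changed places between groups. Ngfr was last with 0.0743 CPM per kilobase and stood above only 3.79% of the tested genes. Most neighbours in this order did not overlap within a group. The ranges overlapped for Nt5e and Mcam in A young, for Cspg4 and Alcam in B young and for Nt5e and Alcam in C old.

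**Figure D1:**
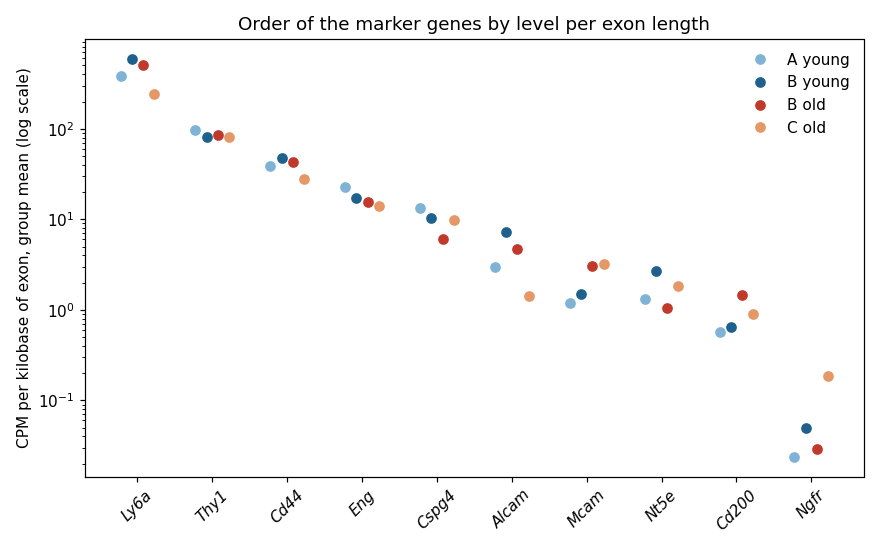
Group means of the 10 marker genes in CPM per kilobase of exon, on a log axis, with 1 point for each of the 4 groups of libraries. Genes are ordered by their mean over all libraries, from Ly6a at 404 to Ngfr at 0.0743, and the group means lie furthest apart for Alcam and the genes to its right.

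The 3 genes next to Ly6a in this order per kilobase, which were Thy1, Cd44 and Eng, were also the steadiest over the 11 libraries. Their coefficients of variation were 19.2%, 26.4% and 22.8% of the mean CPM. In CPM without division by length, Cspg4 (mean 126) stood above Eng (72.5). Alcam (59.6%) and Mcam (52.0%) varied most among the genes well above the detection limit.

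The question of the series is how MSCs change with age. Old and young MSCs were compared with batch in the model, in which case the difference is set by the 4 libraries of batch B, the only batch with both ages. Nt5e and Alcam were lower in old MSCs. The other 8 genes did not pass the threshold of an adjusted p of 0.05 in edgeR's quasi-likelihood test. The 2 genes called of 10 tested compare with 2.23% of all 16132 genes tested called in either direction, and with 1.54% called as lower in old MSCs. The median log2 difference was -0.19 for the 10 genes and 0.0 for all genes tested. No member was called higher in old MSCs by edgeR or limma, and DESeq2 called Mcam, while 2 members (Mcam and Cd200) were higher at an unadjusted p under 0.05 in edgeR. Within batch B the ranges of old and young libraries were separate for 7 of the 10 genes, as for 39.7% of all genes. The 7 include Ngfr, which had 4 and 2 counts in B young and 1 and 2 in B old. Its ranges were separate there only through the scaling of the libraries.

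Nt5e, Ly6a and Thy1 encode proteins that are held in the membrane by a lipid anchor (GPI). Nt5e gives CD73, the enzyme which turns extracellular AMP into adenosine. Its levels were 12.6, 10.9, 10.9 and 10.7 CPM in A young, 16.0 and 30.5 in B young, 8.42 and 9.81 in B old, and 12.6, 18.3 and 16.6 in C old. The second B young library stood above all others, and both B old libraries lay below every other library. Nt5e was 2.53-fold lower in old than in young MSCs, with a log2 difference of -1.34 (SE 0.25, n = 11 libraries, edgeR adjusted p = 0.00932). This difference was -0.82 without B young replicate 2 (adjusted p = 0.0223) and missed the threshold without B old replicate 1 (-1.23, adjusted p = 0.128).

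The direction of Nt5e depended on the libraries that were compared. Within young MSCs, Nt5e was 2.08-fold higher in batch B than in A (log2 1.06, SE 0.22, n = 6, adjusted p = 0.00707), although not without B young replicate 2 (log2 0.53, adjusted p = 0.134). Within old MSCs, it was 1.72-fold higher in batch C than in B (log2 0.79, SE 0.16, n = 5, adjusted p = 0.00126). Between C old and A young, where age and batch cannot be told apart, Nt5e was higher in old MSCs by 0.54 on the log2 scale (SE 0.13, adjusted p = 0.00358). The sign is thus opposite to that within batch B. A fit without batch gave -0.20 (adjusted p = 0.671).

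Ly6a, which encodes Sca-1, was by far the most abundant member. Its levels were 528, 428, 419 and 448 CPM in A young, 651 and 778 in B young, 647 and 568 in B old, and 320, 270 and 290 in C old. Both ages of batch B stood above A young, and C old lay below all other libraries. With age no difference was called (log2 -0.23, SE 0.14, adjusted p = 0.437). Ly6a was 1.59-fold higher in batch B than in A within young MSCs (log2 0.67, SE 0.14, adjusted p = 0.00791), without a call when B young replicate 2 was left out or replicate number was a block. Within old MSCs it was 2.08-fold lower in batch C than in B (log2 -1.06, SE 0.08, adjusted p = 5.23e-07). When gene length and GC content were corrected for, the latter difference was -0.66.

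Reads of Ly6a can be shared with similar genes, and 19.0% of its 50-base stretches also occur in transcripts of other genes. Ly6c1, Ly6i and I830127L07Rik share the most of them. Ly6c1 moved between batches in the same directions as Ly6a, with means of 127 CPM in A young, 244 in B young, 167 in B old and 108 in C old. The part of shared reads in these values was not tested. Ly6i stayed at or below 0.544 CPM.

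Thy1 encodes the adhesion protein CD90 and was not called in any comparison or alternative. Its levels were 308, 388, 238 and 231 CPM in A young, 269 and 219 in B young, 234 and 276 in B old, and 270, 207 and 261 in C old. All groups overlapped. The log2 difference with age was 0.07 (SE 0.21, adjusted p = 0.908), and its sign changed between the ways of fitting.

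**Figure D2:**
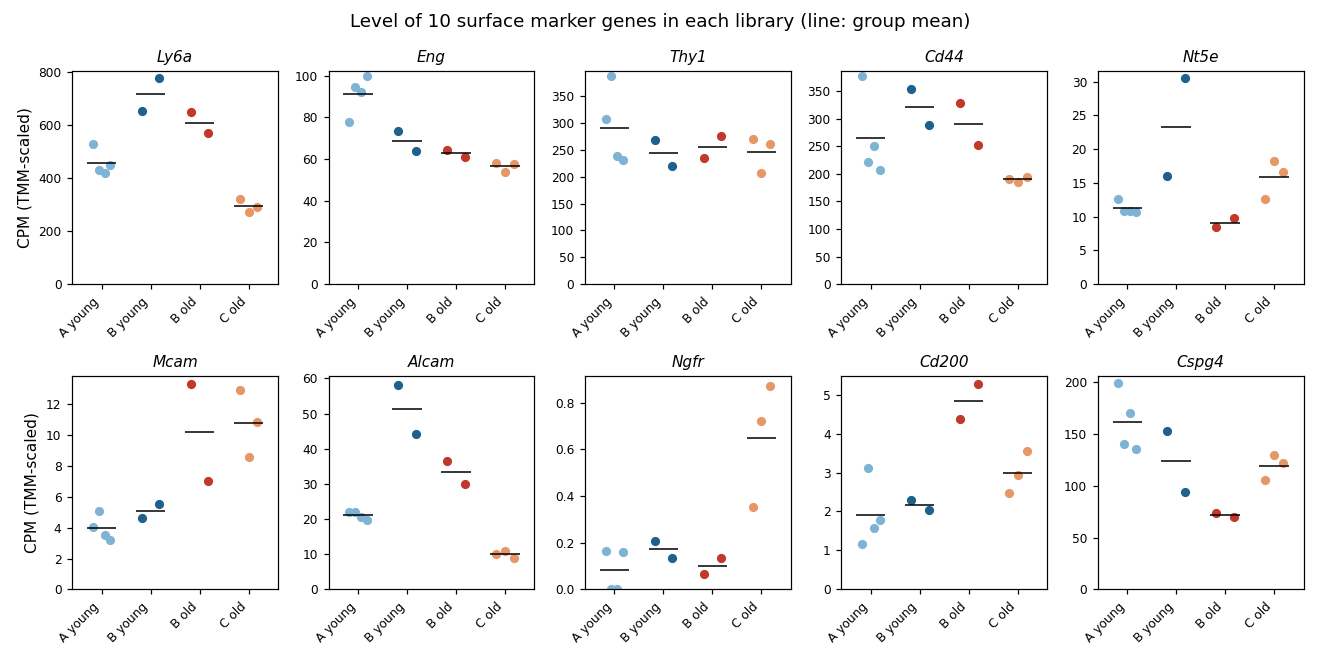
CPM of each of the 10 marker genes in the 11 libraries, on linear axes from 0, with 1 point per library and a line at the mean of each group. B old has the lowest Nt5e values (8.42 and 9.81 CPM), C old the lowest Alcam (9.06 to 10.9 CPM) and Ly6a values (270 to 320 CPM), and all old libraries exceed all young ones for Mcam.

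Of the adhesion molecules of the immunoglobulin superfamily, Alcam encodes CD166, which binds itself and CD6 on neighbouring cells. Its levels were 22.0, 22.1, 20.7 and 19.8 CPM in A young, 58.2 and 44.3 in B young, 36.6 and 30 in B old, and 10.1, 10.9 and 9.06 in C old. No group overlapped another, and batch B stood above batches A and C at either age. With batch in the model, Alcam was 1.54-fold lower in old MSCs (log2 -0.62, SE 0.15, adjusted p = 0.0339). The value was negative under every alternative, but the call was lost when any library of C old, any of B old or B young replicate 1 was left out (log2 -0.41 to -0.77, adjusted p = 0.0532 to 0.231). It was also lost with limma (adjusted p = 0.0508), without batch in the model (adjusted p = 0.279) and in batch B alone (adjusted p = 0.203).

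Alcam also differed between batches. Within young MSCs it was 2.46-fold higher in batch B than in A (log2 1.30, SE 0.13, adjusted p = 0.000334), and within old MSCs 3.32-fold lower in batch C than in B (log2 -1.73, SE 0.12, adjusted p = 1.51e-07). Both were called under every alternative. Between C old and A young it was lower in old MSCs by -1.02 on the log2 scale (SE 0.10, adjusted p = 3.4e-06).

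Mcam encodes CD146, a receptor of vessel-associated cells. Its levels were 4.04, 5.07, 3.55 and 3.17 CPM in A young, 4.64 and 5.51 in B young, 13.3 and 7.01 in B old, and 12.9, 8.57 and 10.8 in C old. All 5 old libraries stood above all 6 young libraries, which made Mcam the only member whose ages did not overlap over all batches. Of all genes tested, 6.95% showed such a separation in either direction. With batch in the model the log2 difference was 1.00 (SE 0.29), and it missed the threshold with an adjusted p of 0.0846. The B old libraries decided this value, which was 0.48 without replicate 1 (adjusted p = 0.638) and 1.39 without replicate 2 (adjusted p = 0.0222, a call). Between C old and A young Mcam was higher by 1.5 (SE 0.19, adjusted p = 1.65e-05), which was the largest difference of a member there after Ngfr. No difference was called between batches within young (log2 0.38, SE 0.24, adjusted p = 0.295) or within old MSCs (log2 0.09, SE 0.24, adjusted p = 0.766), although the latter was 0.62 and called without B old replicate 1 (adjusted p = 0.0149).

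Markers of the other cell types that express Mcam were summed beside it. Endothelial markers reached 1.71 to 2.89 CPM in A young, 3.54 to 5.05 in B young, 4.58 to 5.68 in B old and 4.71 to 9.94 in C old. Of 8 endothelial markers listed 7 were measured, Emcn was at 0 in A young and B old, and Pecam1 and Cdh5, which define endothelium, reached at most 0.588 CPM. Most of the sum came from Tek, a receptor of endothelial cells, with means of 1.56 CPM in A young, 3.6 in B young, 4.56 in B old and 6.74 in C old. Tek had a log2 age difference of 0.32 (adjusted p = 0.697) and was higher in batch B than in A within young MSCs (log2 1.23, adjusted p = 0.0151). Markers of pericytes and smooth muscle, mostly Acta2, summed to 3320 to 4520, 2360 to 2460, 3040 to 3610 and 3300 to 3700 CPM in the same order, and 7 of the 8 tested had a positive age difference. Des, a muscle filament gene, rose (log2 2.15). Their part in the level of Mcam was not tested.

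Cd200 encodes a membrane protein which restrains myeloid cells through its receptor. Its levels were 1.16, 3.12, 1.57 and 1.79 CPM in A young, 2.29 and 2.04 in B young, 4.38 and 5.27 in B old, and 2.47, 2.94 and 3.55 in C old. B old stood highest, while C old overlapped A young. The age difference was 1.15 (SE 0.34, log2) and was not called (adjusted p = 0.0993), but it passed the threshold without A young replicate 1 (adjusted p = 0.048) or 2 (adjusted p = 0.0431). Within old MSCs Cd200 was 1.63-fold lower in batch C than in B (log2 -0.70, SE 0.22, adjusted p = 0.014), without a call when libraries were scaled by total counts, when all groups were fitted together, or without B old replicate 2 or C old replicate 1.

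Cd44 and Cspg4 bind the extracellular matrix. Cd44, the receptor of hyaluronan, was found at 377, 222, 251 and 206 CPM in A young, 353 and 288 in B young, 329 and 252 in B old, and 191, 185 and 195 in C old. C old lay below all other libraries and varied least. No difference with age was called with batch in the model (log2 -0.14, SE 0.22, adjusted p = 0.794). Within old MSCs, Cd44 was 1.53-fold lower in batch C than in B (log2 -0.61, SE 0.10, adjusted p = 0.000136). Isoforms of Cd44 were not resolved by these counts. Between the young batches the log2 difference of Cd44 was 0.30 (adjusted p = 0.321), with a call without A young replicate 1 (log2 0.52, adjusted p = 0.0256). Cd44 and Thy1 are also expressed by leukocytes, whose summed markers were lowest in C old as given above, and their part was not tested.

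Cspg4 encodes the proteoglycan NG2. Its levels were 199, 140, 170 and 135 CPM in A young, 153 and 93.6 in B young, 73.7 and 69.7 in B old, and 105, 129 and 122 in C old. B old lay below all other libraries. The log2 difference with age was -0.79 (SE 0.21) with an adjusted p of 0.06. It was -1.10 without B young replicate 2 (adjusted p = 0.00362) and -0.39 without B young replicate 1 (adjusted p = 0.452). The gene was also called without A young replicate 1 (adjusted p = 0.0272), while without B old replicate 1 or 2 the adjusted p was 0.268 or 0.211. Between the young batches it was -0.36 (adjusted p = 0.213), and -0.76 with a call without B young replicate 1 (adjusted p = 0.0192). Within old MSCs Cspg4 was 1.65-fold higher in batch C than in B (log2 0.72, SE 0.09, adjusted p = 1.9e-05). This difference was called under 13 of 14 alternatives. It was -0.11 (adjusted p = 0.216) after correction for gene length and GC content, so that its direction depended on that correction.

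Eng and Ngfr are receptors of growth factors. Eng encodes endoglin, a co-receptor for TGF-beta and BMP ligands. It was found at 77.8, 94.6, 92.1 and 100 CPM in A young, 73.6 and 63.8 in B young, 64.4 and 61.2 in B old, and 58.3, 53.9 and 57.4 in C old. A young stood above and C old below all other libraries, with batch B between them at both ages. The age difference with batch in the model was -0.13 (SE 0.12, log2, adjusted p = 0.642). Between C old and A young it was -0.63 (SE 0.09, adjusted p = 4.86e-05), where batch differed as well. Eng missed the threshold between batches within young MSCs (log2 -0.39, SE 0.13, adjusted p = 0.0611) and within old MSCs (log2 -0.16, SE 0.07, adjusted p = 0.0645). Within young MSCs it was called by DESeq2 (adjusted p = 0.0435), with all groups in the same fit (0.012), and without A young replicate 1 (0.0295) or B young replicate 1 (0.0369), and the length and GC correction gave -0.11 (adjusted p = 0.499). Within old MSCs that correction gave -0.44 and a call (adjusted p = 8.21e-05), whereas scaling by total counts gave 0.04 (adjusted p = 0.649).

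Ngfr encodes the low-affinity receptor for neurotrophins and was close to the limit of detection. It had 3, 0, 0 and 2 counts in A young, 4 and 2 in B young, 1 and 2 in B old, and 6, 11 and 12 in C old. Only libraries of C old held more than 4 counts. Summed counts were 29 in C old and 3 in B old, a ratio of 6.26 after scaling, with an exact 95% counting interval of 1.94 to 32.1. The test within old MSCs called Ngfr (adjusted p = 0.0105), but not without B old replicate 1. No fold change with age is given at these counts (adjusted p = 0.778), and Ngfr was not tested between the young batches. Schwann cells also express Ngfr, and their summed markers were 18.1 to 19.5 CPM in C old against 9.56 to 14.3 CPM in the other groups. Sox10, which defines these cells, was at 0 in all libraries of batch B and at most 0.0588 CPM elsewhere. The part of such cells in Ngfr was not tested.

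**Figure D3:**
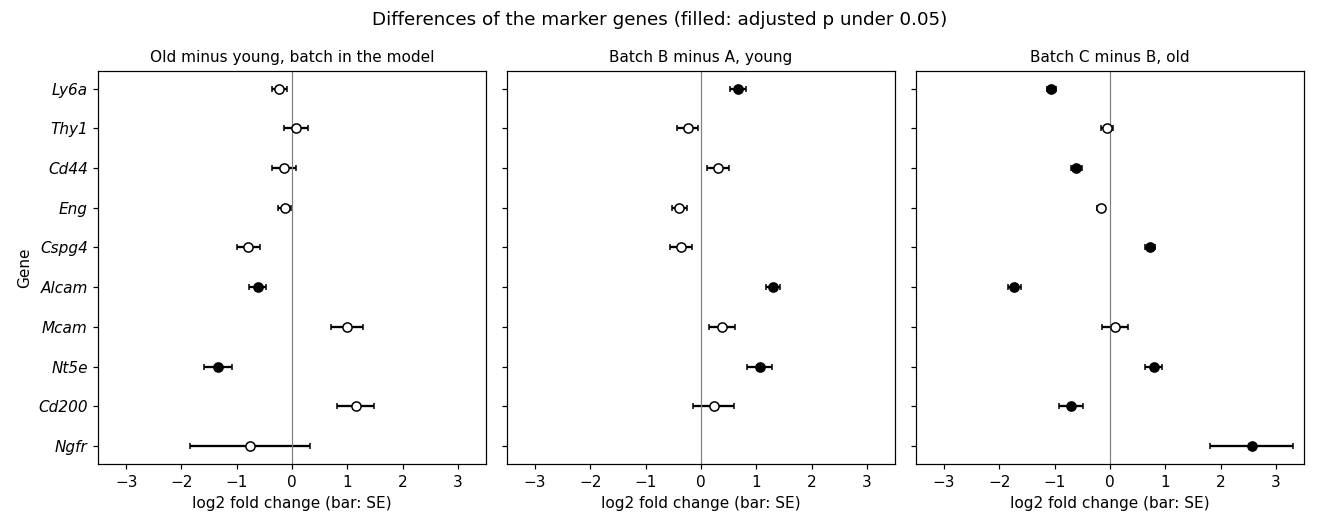
Log2 differences of the 10 marker genes (points) with their standard errors (bars) for old minus young with batch in the model (11 libraries), batch B minus A within young (6 libraries) and batch C minus B within old MSCs (5 libraries). Filled points passed an adjusted p of 0.05 in edgeR, which were 2, 3 and 7 genes, and the bar of Ngfr is wide because of its few counts.

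Members were also compared between batches at a fixed age. Among young libraries, comparing batch B with A, Alcam, Nt5e and Ly6a were called of 9 tested, all higher in B, where 18.1% of all genes were called. Among old libraries, comparing batch C with B, 7 of 10 were called against 64.7% of all genes, a share near that background. Ngfr, Nt5e and Cspg4 were higher and Ly6a, Cd44, Alcam and Cd200 lower in C. Between C old and A young, 8 of the 10 genes were called, and 63.8% of all genes were. The B young libraries enter the first comparison and the age difference, and the B old libraries the second and the age difference, so that their values are not independent.

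Genes of the pathways around the members were taken from lists, described by counts with the age difference in batch-adjusted values. Around Nt5e, 11 genes of extracellular nucleotide breakdown and adenosine signalling were tested, of which 1 rose and 1 fell with age. Enpp1 encodes an enzyme which splits ATP into AMP and pyrophosphate. It was found at 24.4 to 35.2 CPM in A young, 52.4 and 46.4 in B young, 24.6 and 26.0 in B old and 17.0 to 19.6 in C old. It fell by 0.97 on the log2 scale (SE 0.16, adjusted p = 0.00467). Alpl, the tissue-nonspecific alkaline phosphatase and a gene of osteoblasts, can also release adenosine from AMP. It was at 151 to 185 CPM in A young, 127 and 112 in B young, 242 and 232 in B old and 244 to 338 in C old, and it rose (log2 0.98, SE 0.15, adjusted p = 0.00287). All old libraries were above all young libraries for Alpl and none of them reached the B young level for Enpp1. The median age difference of this list was 0.06.

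**Figure D4:**
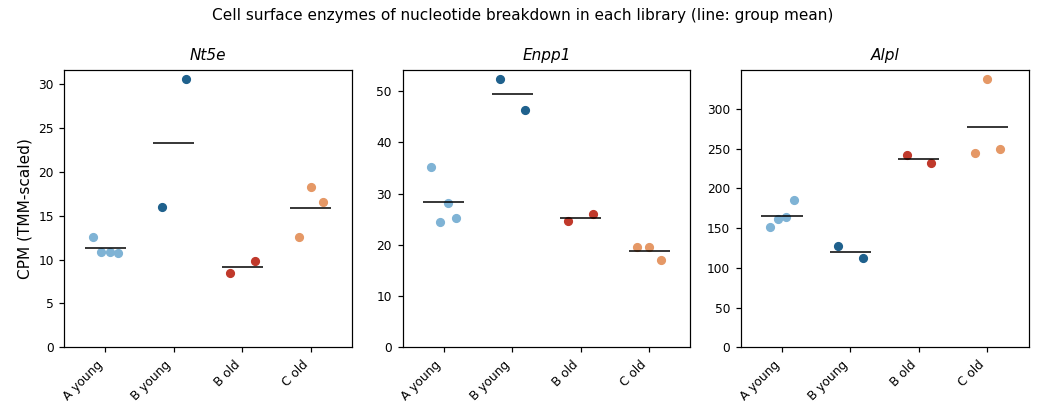
CPM of Nt5e, Enpp1 and Alpl, which encode enzymes at the cell surface that act on nucleotides, in each of the 11 libraries, on linear axes from 0 with a line at each group mean. In batch B, Nt5e and Enpp1 are lower and Alpl is higher in the old libraries, whereas C old exceeds A young for Nt5e.

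Around Eng, 16 receptors, ligands and effectors of TGF-beta and BMP signalling were tested and 2 fell with age. Smad3, a transcription factor activated by TGF-beta receptors, fell by 0.62 (log2, SE 0.13, adjusted p = 0.017). Tgfbr3, the co-receptor betaglycan, fell by 0.66 (log2, SE 0.15, adjusted p = 0.0339). It was at 118 and 138 CPM in B old, but C old (220 to 233 CPM) lay within the range of the young libraries (173 to 258 CPM). The list had a median of -0.01.

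Around Cd44, 1 of 11 genes of hyaluronan turnover and Cd44 ligands was called. Has2, a synthase of hyaluronan, was at 27.7 to 40.2 CPM in A young, 77.4 and 72.9 in B young, 128 and 123 in B old and 81.8 to 85.1 in C old, and it rose with age (log2 0.74, SE 0.13, adjusted p = 0.00895). The median of the list was 0.25. Around Ngfr, 1 of 8 neurotrophins and their receptors was called. Ntrk3, the receptor of neurotrophin-3, fell by 0.82 (log2, SE 0.17, adjusted p = 0.0165), with 53.8 to 103 CPM in young libraries, 33.7 and 40.8 in B old and 151 to 156 in C old. C old was thus above all young libraries for Ntrk3, unlike B old.

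Among 24 other surface proteins of stromal cells, 3 fell with age, with a list median of -0.15. Pdgfra, the second gene of the sort, was at 164 to 227 CPM in A young, 236 and 194 in B young, 109 and 128 in B old and 268 to 289 in C old. It fell by 0.86 on the log2 scale (SE 0.15, adjusted p = 0.0059), although C old stood above all young libraries. Anpep (CD13), an aminopeptidase, fell by 1.01 (SE 0.22, adjusted p = 0.0226). Dpp4 (CD26), a peptidase of fibroblast progenitors, fell by 3.19 (SE 0.71, adjusted p = 0.0256), from 1.09 and 2.79 CPM in B young to 0.202 and 0.2 CPM in B old, which is near the detection limit.

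The remaining lists gave no calls with edgeR. Of 9 genes of the Ly6 and uPAR family, 3 had an unadjusted p under 0.05, and limma called 0 and DESeq2 1. Their smallest p was that of Ly6c1 (log2 -0.55, adjusted p = 0.0586). Of 13 binding partners of the adhesion members, 2 had an unadjusted p under 0.05 and neither limma nor DESeq2 called any, and Mpdz had the smallest p (log2 -0.45, adjusted p = 0.146). Of 8 sheddases and their inhibitor, 1 had an unadjusted p under 0.05, which was the inhibitor Timp3 (log2 -0.43, adjusted p = 0.0846), and limma called 0 and DESeq2 1. The medians of these lists were -0.22, -0.08 and -0.1.

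Markers of cell types were examined in the same age comparison. Of the 10 mesenchymal genes, all had negative age differences, which are set by batch B. Pdgfra, Dcn (log2 -1.59, adjusted p = 0.00941) and Lum (log2 -1.63, adjusted p = 0.00946) fell. The last 2 encode small matrix proteoglycans. C old overlapped A young for Dcn (177 to 262 against 226 to 312 CPM) and Lum (162 to 264 against 160 to 221 CPM). For Pdgfra, C old stood above all young libraries, as given above. The sum of chondrocyte markers was 4370 to 6180 CPM in B young and 2300 to 2570 in B old, and that of osteoblast markers 170 to 184 and 329 to 349 CPM. Of 6 chondrocyte markers tested 2 fell, which were Comp (log2 -1.30), the bulk of that sum, and Col9a1 (log2 -2.74, adjusted p = 0.0474). Col9a1 was at 2.71 and 1.36 CPM in B young and 0.269 and 0.334 in B old, which is near the detection limit. Its values in C old (0.363 to 0.916 CPM) overlapped those in A young (0.0826 to 0.893 CPM). Of the 6 markers, limma called 1 and DESeq2 3. Of 7 osteoblast markers tested 1 rose, which was Alpl, with a mean of 120 CPM in B young and 237 in B old the larger part of that sum. Ptprc was at 15.6 and 7.48 CPM in B young and 22.2 and 17.6 in B old (log2 0.77, SE 0.30, adjusted p = 0.216). None of 10 tested leukocyte markers was called by edgeR or limma and 1 by DESeq2, with 5 higher in old MSCs at an unadjusted p under 0.05. The part of these marker differences in the values of Nt5e and Alcam was not tested.

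The genes most like a member were those with the smallest root mean square difference in mean-centred log2 CPM over the 11 libraries, searched among 13706 protein-coding genes. Nt5e was most like Aqp1, a water channel, with a difference of 0.24, and Tram1l1 with 0.26. Aqp1 had means of 127 CPM in A young, 281 in B young, 98.7 in B old and 180 in C old. Alcam was most like Il1rl1, the receptor of interleukin-33, with 0.29, and Aqp5 with 0.30. Il1rl1 had means of 80.0, 163, 113 and 34.9 CPM in the same order of groups. For Ly6a the nearest genes were Cggbp1 and Tspan3, both with 0.13. For comparison, the root mean square spread of the members themselves was 0.49 for Nt5e, 0.83 for Alcam and 0.48 for Ly6a.

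Positions of the members are given on GRCm38 with GENCODE M21, where all 10 are protein-coding. Nt5e lies at chr9:88327197-88372092 on the plus strand, and Thy1 (chr9:44043384-44048579), Mcam (chr9:44134469-44142727) and Cspg4 (chr9:56865033-56899870) are on the same strand of that chromosome. Alcam (chr16:52248996-52454074) and Cd200 (chr16:45382135-45409053) share chromosome 16 on the minus strand. Eng (chr2:32646595-32682669, plus) and Cd44 (chr2:102811141-102901665, minus) lie on chromosome 2, Ly6a (chr15:74994877-74998031, minus) on 15 and Ngfr (chr11:95568818-95587735, minus) on 11. The exons of Eng overlap those of Fpgs on the other strand by 61 bases, and those of Mcam overlap the antisense gene Gm10687 by 17 bases.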

How the data were processed

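Polyadenylated RNA of cultured MSCs was sequenced in 11 libraries. The authors deposited raw counts per Ensembl gene and library, without normalisation. According to the methods, which are written for the oxygen comparison and were assumed to hold here, reads were processed with zUMIs, STAR and featureCounts. The submitters' processing notes name mm10 and GRCm38. Collapsing of molecular identifiers and use of strand are not given in the sources used here. Libraries were grouped by age and batch from the labels. Of 28222 genes, 28179 matched GENCODE M21. The members and gene lists were chosen with earlier results of these data known.

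For testing, edgeR 4.0.16 (R 4.3.3) was used with its quasi-likelihood method on the deposited counts (filterByExpr with a minimum count of 5, TMM factors, Benjamini-Hochberg adjustment over all genes tested, two-sided), and p-values in the text are of this test unless stated. Standard errors are the log2 fold change over the square root of F. CPM were scaled by TMM, and for log2 CPM 2 prior counts were added. Totals were 11969336 to 20315934 counts, and intervals and floors cover counting error only. The 3 comparisons were age with batch as a covariate (11 libraries), batch B against A in young and batch C against B in old MSCs. C old against A young was computed as an alternative. All members are named, as are Pdgfra and Ptprc, and of each list up to 3 called genes with the smallest p in the age comparison, otherwise the gene with the smallest p. The 2 most similar protein-coding genes are given for Nt5e, Alcam and Ly6a. Names and values of marker genes outside this rule (Col1a1, Col1a2, Des, Dcn, Lum, Pecam1, Cdh5, Tek, Acta2, Sox10, Comp, Col9a1) were chosen after their values were seen. Alternatives were limma 3.58.1, DESeq2 1.42.0, RLE factors, total counts, other filters, a correction for gene length and GC content (loess span 0.3), other sets of libraries, a replicate block and leaving out each library. Scripts were tested on simulated data. Some listed genes were not analysed here.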

Additional observations from a re-analysis of the deposited data

Results flagged for a closer look

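The level of Nt5e in A young stood out because replicate 1 (12.6 CPM) lay apart from the other 3 libraries (10.7 to 10.9 CPM), and its gap to the nearest of them made up 0.904 of the range of the group. All 10 members were tested in this group of 4, and chance alone marks about 1 in 20 groups. The age difference with batch in the model is set by batch B and does not rest on this library. Without it, Nt5e was higher in batch B than in A within young MSCs by 1.11 on the log2 scale, against 1.06 with it (adjusted p = 0.00624 and 0.00707).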

How the results depend on the processing

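Of the 217 age differences of single members under the alternatives, 180 kept direction and call, 11 lost a call, 18 gained one and 8 changed sign. The numbers were 125, 3, 6 and 1 of 135 between the young batches and 124, 5, 2 and 9 of 140 between the old batches. The number of members called with age was 2, and it was 1 with limma (Nt5e), 4 with DESeq2 (with Mcam and Cspg4), 5 without a filter (with Mcam, Cd200 and Cspg4), 1 in batch B alone and 8 for C old against A young. Without batch in the model, 3 members were called (Eng, Mcam and Cd200), but neither Nt5e nor Alcam. With each library left out it lay between 0 and 4. It was 0 without B old replicate 1, where 4 members had an unadjusted p under 0.05, and 4 without A young replicate 1. Between the young batches it lay between 1 (Alcam, without B young replicate 2) and 5 (without A young replicate 1 or B young replicate 1) instead of 3.

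Signs changed with age for Thy1 (-0.13 without batch and -0.18 for C old against A young), and in the latter comparison for Nt5e (0.54) and Ngfr (2.74). With each library left out, Thy1 ranged from -0.08 to 0.22 and Cd44 from -0.34 to 0.04. Between the young batches Cspg4 was 0.19 with the length and GC correction. Between the old batches, scaling by total counts gave 0.04 for Eng and 0.14 for Thy1, and the length and GC correction gave 0.05 for Thy1, -0.01 for Mcam and -0.11 for Cspg4. With each library left out, Thy1 ranged from -0.17 to 0.06 and Mcam from -0.31 to 0.62. Scaling by total counts moved the median of all genes between the old batches to 0.22. The cause of these changes was not tested.

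B young and B old libraries of the same number correlated by 0.037 in their deviations from the group mean. With 2 libraries per group, both numbers give the same value. This correlation therefore cannot decide whether replicate numbers pair the libraries. With replicate as a block, 2 members were called with age (Nt5e -1.31, Alcam -0.62), 2 between the young batches, where Ly6a was lost, and 7 between the old batches. Over all genes, the block moved the number of calls between the young batches from 2686 to 729. With 3 counts worth 0.156 to 0.253 CPM, depth limited Ngfr and, to a lesser extent, Cd200.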
